A study of Mus musculus with 36 samples.

Results

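Duox2 and Duoxa2 are a pair of neighbouring mouse genes that together make 1 enzyme. They were taken from the expression table by their symbols and are 2 of its 12652 genes. Duox2 (Entrez gene 214593) encodes dual oxidase 2, an NADPH oxidase that sits in the apical membrane of epithelial cells and releases hydrogen peroxide into the lumen. Duoxa2 (Entrez gene 66811) encodes its maturation factor, without which the oxidase stays in the endoplasmic reticulum and makes little peroxide. In the intestine the pair is known as part of the antimicrobial barrier, since its output rises with microbes and inflammatory signals and its peroxide limits bacterial contact with the epithelium. In the thyroid the same pair supplies peroxide for hormone synthesis.

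Gene expression was measured by mRNA sequencing in 36 libraries of mouse intestinal organoids, which are epithelial cultures grown from single cells into closed, budding structures and hold no blood vessels or immune cells by design. The cultures came from 2 male, wild type C57BL/6 littermates aged 8 weeks. RNA was purified in duplicate from each culture in each of 9 conditions, every purification pooling 3 wells, so a condition had 4 libraries but n = 2 mice. All cultures were grown to day 3 in ENR medium (EGF, Noggin and R-Spondin) with Wnt3a-conditioned medium, the ROCK inhibitor Y-27632 and the GSK3 inhibitor CHIR99021. The 0h_none group was taken at that point, untreated. The other groups were switched to plain ENR with DMSO as the vehicle, with all-trans retinoic acid (atRA) or 9-cis retinoic acid (9cisRA) at 10 µM, or with RXRi, a blocker of RXR, at 5 µM, and were taken at 6 h or 24 h. The doses are written with the unit µm in the labels and were read as µM. Both acids are vitamin A derivatives that differ in the geometry of 1 double bond. As background, atRA activates retinoic acid receptors, 9cisRA can activate these and also the retinoid X receptor (RXR), and RXR is the partner that retinoic acid receptors and several lipid-sensing receptors need to bind DNA. The 0 h cultures had no DMSO and other medium, so vehicle, medium change and time cannot be told apart in comparisons with 0 h.

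Both genes lie on chromosome 2, head to head, in GRCm38, the assembly also called mm10. In RefSeq, Duox2 occupies 122279246 to 122298740 on the minus strand and Duoxa2 occupies 122298900 to 122302885 on the plus strand. The stretch between their annotated starts, chr2:122298741-122298899, is 159 bases long and is shown because both genes are transcribed away from it. It is printed from RefSeq (GRCm38.p6) on the plus strand, so that Duoxa2 begins just after its last base and Duox2 runs off to its left. The capitals mark TGACCT, which is the nuclear receptor half-site AGGTCA read on the other strand, and TATAAA, the core of a TATA box.
Duox2-Duoxa2 interval: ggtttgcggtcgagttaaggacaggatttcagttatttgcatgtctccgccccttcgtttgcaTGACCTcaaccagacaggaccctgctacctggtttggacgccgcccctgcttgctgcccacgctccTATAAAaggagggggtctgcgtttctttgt
The TATAAA run starts 30 bases before the Duoxa2 start, and 7.95% of 32851 RefSeq promoter windows of the same length hold it on either strand. The half-site starts 96 bases before the Duoxa2 start, and 9.08% of the windows hold it. A pair of AGGTCA runs in the same direction with 1, 2 or 5 bases of any kind between them, the direct repeats that RXR and its partners bind, was not among the letters of this interval on either strand. Such repeats are rare in windows of this length, at 0.0304%, 0% and 0.00304%. The matches describe the letters of this window only. In GENCODE M21 Duox2 starts further left, leaving 450 bases between the genes, and the last 695 bases of Duoxa2 (122302191 to 122302885) overlap Duoxa1 on the opposite strand. Whether reads were counted by strand is not given in the sources used here, so reads from that overlap cannot be assigned to 1 of the genes.

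Levels are given in RPKM, the reads of a gene divided by its length in kilobases and by a divisor for the library. This allows comparison between genes of different length. Duox2 was at 0.176 to 5.13 RPKM across the 36 libraries (24 to 666 reads of a 5297-base gene), and Duoxa2 was at 0.195 to 5.77 RPKM (8 to 244 reads of a 1592-base gene). These are low levels: 20.3% and 22.2% of the listed genes had a lower mean. Library depth, as reads recovered from the table, was 19.6 to 30.7 M, and 1 read of Duoxa2 was worth 0.0208 to 0.0307 RPKM. The divisor was not this sum of reads. At 24 h it was lower with 9cisRA (22.9 to 26.6 M against 25.4 to 29.6 M) and with atRA (23.1 to 24.3 M against 25.0 to 27.1 M). The ranges were closer with DMSO at 24 h (25.3 to 27.3 M against 25.5 to 28.4 M). With RXRi they were 25.8 to 28.8 M against 27.0 to 30.7 M. A lower divisor gives a higher RPKM for the same reads. Scaling libraries to read sums is among the alternatives given below. At 0 h the divisor was higher (20.5 to 30.3 M against 19.6 to 29.1 M). How the divisor was set is not given in the sources used here. Both genes passed the filter on low values (at least 1 RPKM in at least 4 libraries) in the 24 h DMSO libraries alone, so neither was tested only because a compound raised it. Of the 12 enterocyte markers chosen to check the labelled tissue, all 12 were listed and 11 passed that filter. They summed to 11856 to 18860 RPKM in the DMSO libraries at 24 h. Only 4 of 12 immune and stromal markers (Cd14, Cd68, Itgam and Vim) were listed, summing to 14.2 to 39.1 RPKM over all libraries. Fewer cells of a type and less RNA per cell cannot be told apart in these bulk libraries.

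**Figure D1:**
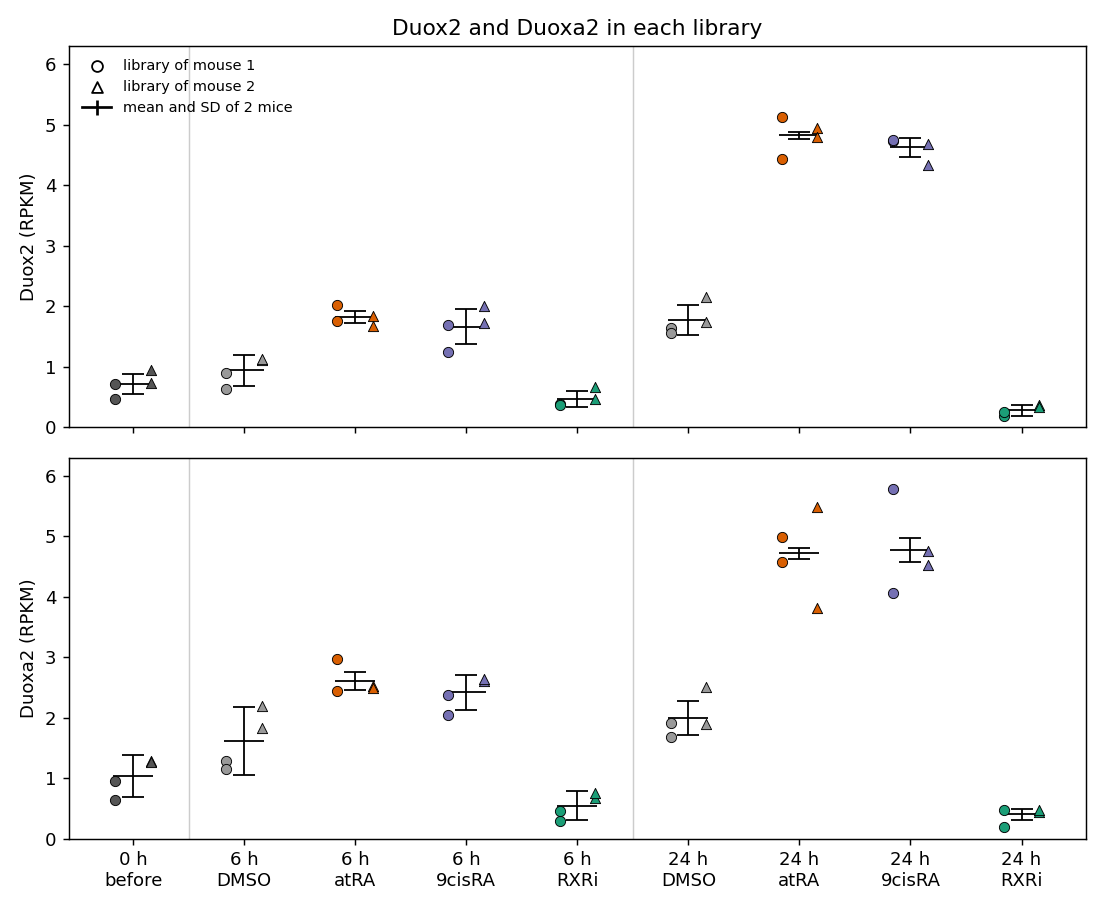
Level of Duox2 (top) and Duoxa2 (bottom) in RPKM in each of the 36 libraries, by time and treatment. Circles and triangles are the duplicate libraries of mouse 1 and mouse 2, and bars are the mean and SD over 2 mice. Both genes are highest in the 24 h libraries with either retinoic acid and lowest with the RXR antagonist.

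Duox2 was higher with both acids and lower with the antagonist than with DMSO at 24 h. The DMSO libraries at that time held 1.63 and 1.56 RPKM of Duox2 in mouse 1 and 1.73 and 2.15 in mouse 2. With atRA they held 5.13 and 4.43 in mouse 1 and 4.94 and 4.79 in mouse 2. All 4 atRA libraries thus lay above all 4 DMSO libraries. How many of all genes show such a separation of libraries, here or in the comparisons below, was not counted. The mean was 4.82 ± 0.0579 RPKM (SD, n = 2 mice) against 1.77 ± 0.245, and the ratio of RPKM within a mouse was 2.75 ± 0.348. Differences were tested on log2(RPKM + 0.5) in 1 limma model over all conditions with the mouse as a block, and p was adjusted over 11361 genes. Duox2 rose by 1.23 ± 0.11 on that scale (SE, adjusted p = 4.03e-06). In this comparison 19.4% of all genes were called higher, and 52 genes had a larger difference than Duox2.

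9cisRA at the same dose gave levels that overlapped those with atRA. Duox2 was at 4.74 and 4.74 RPKM in mouse 1 and at 4.68 and 4.33 in mouse 2, again above every DMSO library. Its mean was 4.62 ± 0.165 RPKM (SD, n = 2 mice), a ratio of 2.64 ± 0.459 to DMSO, and the log2 difference was 1.18 ± 0.11 (SE, adjusted p = 3.60e-06). The share of all genes called higher was 24.4%.

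The RXR antagonist moved Duox2 the other way. At 24 h Duox2 was at 0.176 and 0.253 RPKM in mouse 1 and at 0.361 and 0.327 in mouse 2, far below the lowest DMSO library. The mean of 0.279 ± 0.0919 RPKM (SD, n = 2 mice) was 6.54 ± 1.27-fold below DMSO and 18.2 ± 5.78-fold below atRA. On the log2 scale Duox2 fell by 1.54 ± 0.11 (SE, adjusted p = 5.38e-08), which understates the ratio because 0.5 RPKM is added to values below it. In this comparison 30.4% of all genes were called lower, and 404 genes had a lower value than Duox2.

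Duoxa2, the maturation factor, was also higher with both acids than with DMSO at 24 h. DMSO libraries held 1.69 and 1.92 RPKM in mouse 1 and 2.5005 and 1.89 in mouse 2. The atRA libraries held 4.57, 4.99, 3.82 and 5.48 RPKM, and the 9cisRA libraries 5.77, 4.07, 4.52 and 4.75, in the order mouse 1 then mouse 2. None of these 8 libraries reached down to a DMSO library. Duoxa2 rose by 1.06 ± 0.15 with atRA (SE, adjusted p = 0.000132) and by 1.08 ± 0.15 with 9cisRA (adjusted p = 7.65e-05). The shares of all genes called higher were 19.4% and 24.4%. The ratios of RPKM to DMSO were 2.39 ± 0.376 and 2.42 ± 0.436 (SD, n = 2 mice).

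With the RXR antagonist at 24 h Duoxa2 was at 0.195 and 0.478 RPKM in mouse 1 and at 0.445 and 0.479 in mouse 2. These 4 values did not overlap those with DMSO. The mean was 0.399 ± 0.0890 RPKM (SD, n = 2 mice), 5.05 ± 0.431-fold below DMSO, and the fall on the log2 scale had an adjusted p of 1.44e-06 (-1.48 ± 0.15, SE). The lowest library rests on 8 reads. In this comparison 30.4% of all genes were called lower.

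At 6 h the same directions were present with smaller differences. Duox2 in the DMSO libraries was at 0.893 and 0.625 RPKM in mouse 1 and at 1.11 and 1.12 in mouse 2. With atRA it was at 2.02, 1.75, 1.84 and 1.66 RPKM, all above the DMSO libraries. Duox2 rose by 0.70 ± 0.11 (SE, adjusted p = 0.00279) where 2.79% of all genes were called higher. This difference was 0.93 in mouse 1 and 0.48 in mouse 2, and from mouse 2 alone it did not pass (0.48, adjusted p = 0.0511). With 9cisRA Duox2 was at 1.23, 1.68, 1.72 and 2.00 RPKM, again above every DMSO library, and rose by 0.59 ± 0.11 (adjusted p = 0.00462, 5.01% of genes called higher).

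Duoxa2 showed more spread between mice at 6 h. Its DMSO libraries were at 1.28 and 1.15 RPKM in mouse 1 and at 2.20 and 1.83 in mouse 2, a higher start in the second culture. The atRA libraries were at 2.45, 2.97, 2.53 and 2.49 RPKM and lay above them. The difference of 0.58 ± 0.15 (SE) had an adjusted p of 0.0418. It was 0.90 in mouse 1 and 0.26 in mouse 2, and it did not pass without mouse 1 (0.26, adjusted p = 0.467), with a pseudocount of 0.1, in a fit on recovered reads, or when any 1 of 9 libraries, among them 1 with DMSO and 1 with atRA at 6 h, was left out (adjusted p = 0.0511 to 0.0757). The 9cisRA libraries, at 2.37, 2.04, 2.61 and 2.63 RPKM, overlapped the DMSO range, and the difference of 0.49 ± 0.15 did not pass (adjusted p = 0.0635).

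Both genes were already lower with the RXR antagonist at 6 h. Duox2 was at 0.373, 0.370, 0.458 and 0.653 RPKM, and the highest of these lay within the DMSO range. It fell by 0.57 ± 0.11 on the log2 scale (SE, adjusted p = 0.00197), and the ratio was 2.02 ± 0.0250-fold in both mice (SD, n = 2 mice). Duoxa2 was at 0.298, 0.453, 0.678 and 0.747 RPKM, below every DMSO library, and fell by 1.01 ± 0.15 (adjusted p = 0.000208). The share of all genes called lower was 14.6%.

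**Figure D2:**
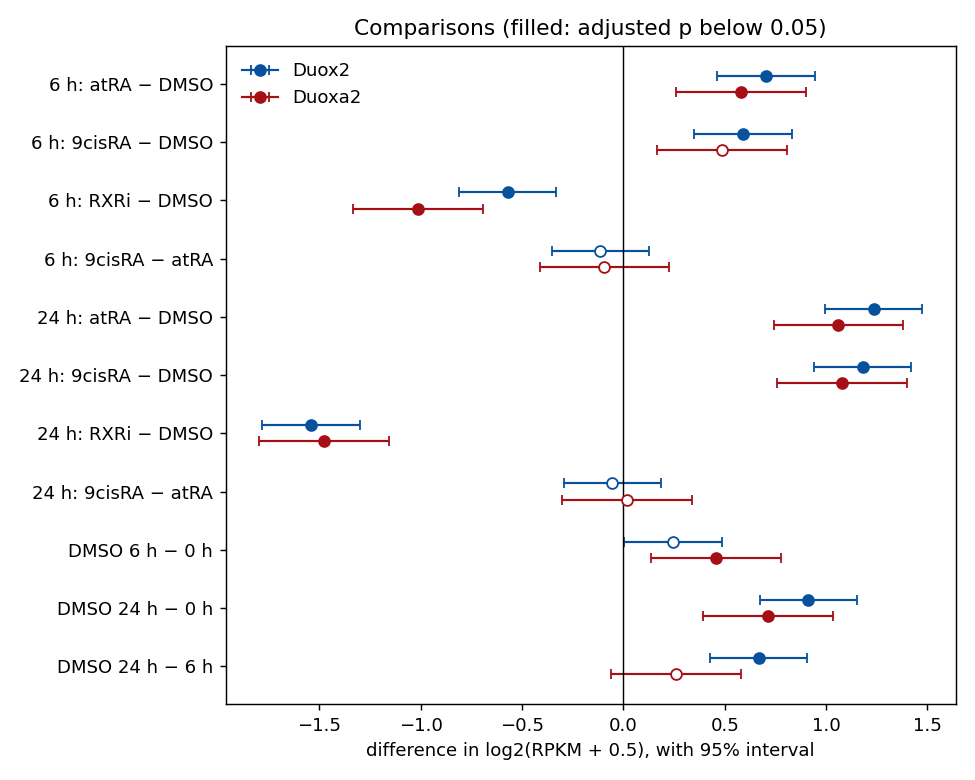
Differences of Duox2 (blue) and Duoxa2 (red) in log2(RPKM + 0.5) in the 8 comparisons between treatments and 3 between times in DMSO, with 95% intervals. Filled points have an adjusted p below 0.05, and the differences between the isomers, -0.11 to 0.02, are open.

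The isomers, atRA and 9cisRA, were compared with each other at the same dose and time, which gives 2 comparisons per gene. Neither gene passed the test in either. At 6 h the difference 9cisRA minus atRA was -0.11 for Duox2 (95% interval -0.35 to 0.13, adjusted p = 0.688) and -0.093 for Duoxa2 (-0.41 to 0.23, adjusted p = 0.832). At 24 h it was -0.054 for Duox2 (-0.29 to 0.19, adjusted p = 0.896) and 0.018 for Duoxa2 (-0.30 to 0.34, adjusted p = 0.980). The intervals allow differences of up to 0.41 in size on the log2 scale. Of all genes, 1.72% were called different between the isomers at 6 h and 0.467% at 24 h. Against 9cisRA the RXR antagonist, given at 5 µM where the isomers were at 10 µM, gave a log2 difference at 24 h of -2.72 ± 0.11 for Duox2 (SE, adjusted p = 1.46e-10) and of -2.56 ± 0.15 for Duoxa2 (adjusted p = 5.07e-09), where 25.3% of genes were called lower. The doses differ, so these values are given without a comparison of potency.

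With neither retinoic acid nor antagonist added, both genes were higher in DMSO at 24 h than at 0 h. Vehicle, medium change and time cannot be told apart in the differences from 0 h. Duox2 was at 0.470, 0.710, 0.730 and 0.935 RPKM at 0 h, and Duoxa2 at 0.950, 0.637, 1.29 and 1.27. In DMSO at 24 h Duox2 had risen by 0.91 ± 0.11 (SE, adjusted p = 1.37e-05) and Duoxa2 by 0.72 ± 0.15 (adjusted p = 0.00103), when 29.2% of all genes were called higher. The genes differed in which interval passed. Duoxa2 rose between 0 h and 6 h (0.46 ± 0.15, adjusted p = 0.0231), whereas its difference between 6 h and 24 h was 0.26 ± 0.15 (adjusted p = 0.164). The first of these calls was lost without mouse 2 (0.42, adjusted p = 0.0782), in the fit on recovered reads (adjusted p = 0.0573) and without the mouse term (adjusted p = 0.0863). For Duox2 the first interval gave 0.25 ± 0.11 (adjusted p = 0.0888) and the second a rise of 0.67 ± 0.11 (adjusted p = 0.000246). Of all genes 22.3% were called higher in the first interval and 25.4% in the second. Whether the 2 genes differ from each other in this timing was not tested.

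The effect of each compound grew with time for Duox2. The difference from DMSO was larger at 24 h than at 6 h by 0.53 ± 0.16 for atRA (SE, adjusted p = 0.0360) and by 0.59 ± 0.16 for 9cisRA (adjusted p = 0.0218), where 10.0% and 10.1% of genes were called in that direction. Both calls were lost with a pseudocount of 0.1 (adjusted p = 0.152 and 0.0989) and with libraries scaled to read sums (adjusted p = 0.0789 and 0.0522). They were also lost in the fit on recovered reads (adjusted p = 0.116 and 0.0823) and without the mouse term (adjusted p = 0.137 and 0.103). For the RXR antagonist the effect deepened by -0.97 ± 0.16 (adjusted p = 0.000366, 16.5% of genes called lower). The same changes for Duoxa2 were 0.48 ± 0.21, 0.59 ± 0.21 and -0.47 ± 0.21, and none passed (adjusted p = 0.127, 0.0664 and 0.104). Within the antagonist alone Duox2 went down further from 6 h to 24 h (-0.30, adjusted p = 0.0346, 24.2% of genes called lower). That call was lost under 9 of 50 alternatives, among them quantile normalization (-0.12, adjusted p = 0.361), a pseudocount of 1 (adjusted p = 0.0718) and leaving out mouse 2 (adjusted p = 0.106). At 24 h both genes were below their level before treatment. Those differences from 0 h were -0.63 for Duox2 (adjusted p = 0.000196) and -0.76 for Duoxa2 (adjusted p = 0.000419), where 34.7% of genes were called lower.

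Ordered by level, Duox2 ran from 24 h RXRi through 6 h RXRi, 0 h, 6 h DMSO, 6 h 9cisRA, 24 h DMSO, 6 h atRA and 24 h 9cisRA to 24 h atRA. Neighbours that did not pass were 0 h and 6 h DMSO (adjusted p = 0.0888), 6 h 9cisRA and 24 h DMSO (0.587), 24 h DMSO and 6 h atRA (0.808), and the isomers at 24 h (0.896). So 6 h with either acid and 24 h with vehicle gave Duox2 levels that could not be ordered, at 1.66 ± 0.286, 1.77 ± 0.245 and 1.82 ± 0.0950 RPKM. Duoxa2 ran from 24 h RXRi through 6 h RXRi, 0 h, 6 h DMSO, 24 h DMSO, 6 h 9cisRA and 6 h atRA to 24 h atRA and 24 h 9cisRA. Its neighbours that did not pass were the RXRi groups (adjusted p = 0.256), the DMSO groups (0.164), 24 h DMSO and 6 h 9cisRA (0.217), and the isomers at 6 h (0.832) and 24 h (0.980).

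The 2 members moved together. Over the 18 means of a mouse in a condition, with each mouse centred, log2 levels of Duox2 and Duoxa2 had Pearson's r = 0.978 and Spearman's rho = 0.959, given as a description because the points share libraries and conditions. Without that centring, r was 0.979 within the 8 means at 6 h and 0.999 within the 8 at 24 h, and rho was 1 and 0.833. At 24 h the levels with either acid, with DMSO and with RXRi lay apart from each other. The ratio of Duoxa2 to Duox2, in RPKM, was 0.774 to 2.02 over libraries with a median of 1.23, and it was above 1 in 29 of 36. Its mean was 1.72 ± 0.118 (SD, n = 2 mice) in DMSO at 6 h and 1.15 ± 0.0204 in DMSO at 24 h. With atRA at 24 h it was 0.984 ± 0.0346. Between its lowest and highest library Duox2 itself differed 29.2-fold and Duoxa2 29.6-fold.

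**Figure D3:**
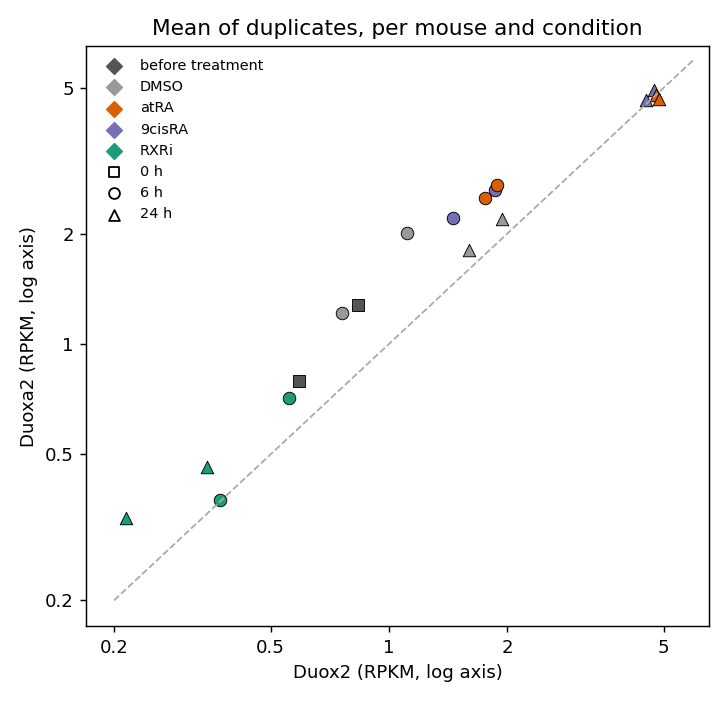
Duoxa2 against Duox2 in RPKM on log axes, with 1 point per mouse and condition (mean of duplicates). Colour gives the treatment and shape the time, and the dashed line marks equal levels. The points run along the line from 24 h RXRi at the lower left to 24 h with either acid at the upper right, and most lie above it.

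Genes whose pattern over the same 18 means was most like that of Duox2 were Slc23a2 (r = 0.985), Plac8 (0.982), Osgin1 (0.979), Duoxa2 itself (0.978), Mapk8 (0.974) and Ifit1bl1 (0.973). For Duoxa2 they were Slc4a4 (r = 0.980), Trim40 (0.980), Duox2 (0.978), Nid1 (0.975), Ifit1bl1 (0.972) and Il33 (0.969). Duoxa2 thus ranked 4th of 11360 genes by likeness to Duox2, and Duox2 ranked 3rd by likeness to Duoxa2. The most opposed pattern was that of Fgfbp1 for both members (r = -0.973 and -0.985), followed by Slc25a48 (-0.971) and Hdgf (-0.968) for Duox2 and by Hsf2 (-0.964) and Nek8 (-0.952) for Duoxa2. In all, 1.70% of genes had r of at least 0.9 with Duox2 and 1.09% with Duoxa2.

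The chromosomal neighbours were compared with DMSO in the same way. Within 100 kb on either side the table lists Sord, Duox1 and Shf beside the pair. Sord, which encodes sorbitol dehydrogenase, was at 79.0 ± 21.3 RPKM in DMSO at 24 h (SD, n = 2 mice) and fell with atRA (-0.55 ± 0.10, SE, adjusted p = 0.00124), with 9cisRA (-0.34 ± 0.10, adjusted p = 0.0173) and with the RXR antagonist (-3.80 ± 0.10, adjusted p = 5.29e-12). Shf, which encodes an adaptor protein, was at 6.19 ± 1.44 RPKM there. It fell with atRA (-0.43 ± 0.092, adjusted p = 0.00303) and 9cisRA (-0.56 ± 0.092, adjusted p = 0.000293) and rose with the antagonist (0.76 ± 0.092, adjusted p = 8.91e-06). Without the mouse term the calls of Sord with 9cisRA (adjusted p = 0.174) and of Shf with atRA (adjusted p = 0.0528) were lost, and that of Shf with atRA was also lost without mouse 1 (-0.27, adjusted p = 0.117).

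Duox1, the second dual oxidase, lies beyond Duoxa1 in the same cluster and was at 0 to 0.313 RPKM (0 to 40 reads), never reaching 1 RPKM in a library. Its mean at 24 h was 0.0830 ± 0.0225 RPKM with DMSO (SD, n = 2 mice), 0.202 ± 0.00735 with atRA, 0.177 ± 0.0227 with 9cisRA and 0.0223 ± 0.00652 with the antagonist. It failed the filter. In a fit without that filter its differences at 24 h were 0.26 ± 0.062 (SE, adjusted p = 0.00577), 0.21 ± 0.062 (adjusted p = 0.0131) and -0.16 ± 0.062 (adjusted p = 0.0412), in the same order. Duox1 resembles Duox2 in sequence, and how reads that fit both were counted is not given in the sources used here. Duoxa1, the maturation factor of DUOX1, is not among the listed genes and could not be analysed.

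**Figure D4:**
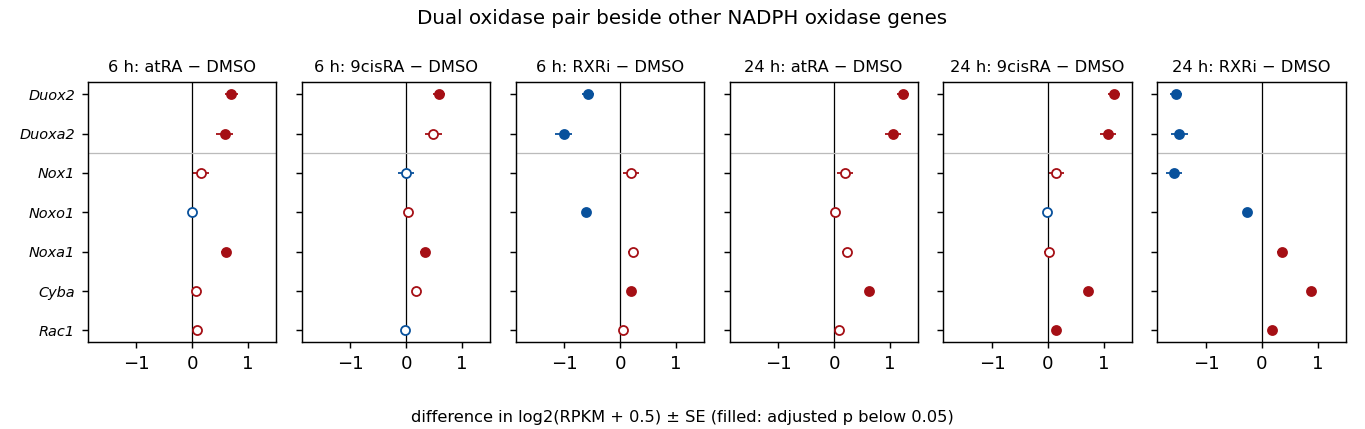
Differences from DMSO in log2(RPKM + 0.5), with SE, for Duox2, Duoxa2 and 5 other NADPH oxidase genes in 6 comparisons. Red points are above 0, blue below, and filled points have an adjusted p below 0.05. The DUOX pair lies to the right with either acid and to the left with RXRi, and Cyba lies to the right in all 24 h panels.

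Other NADPH oxidase genes were compared as the relatives of the pair. Of 13 such genes 5 were tested. The counts of this and the following gene lists are read against the calls over all genes. These were, higher and lower, 2.79% and 1.87% with atRA at 6 h, 5.01% and 3.03% with 9cisRA, and 10.6% and 14.6% with the antagonist. At 24 h they were 19.4% and 18.6%, 24.4% and 23.5%, and 31.1% and 30.4%. At 24 h 1 of the 5 was called higher with atRA, 2 with 9cisRA and 3 with the antagonist, where 2 were lower, and the medians were 0.20, 0.14 and 0.18 against 0.00 over all genes in each. Nox1, the catalytic subunit of the main colonic NADPH oxidase, fell with the antagonist like the pair, from 1.12 ± 0.133 to 0.0388 ± 0.00173 RPKM (SD, n = 2 mice, log2 difference -1.57 ± 0.15, SE, adjusted p = 7.93e-07). With either acid at 24 h Nox1 did not pass. Noxo1, the organiser that keeps NOX1 active, fell with the antagonist at 6 h (-0.62 ± 0.051, adjusted p = 1.46e-06) and 24 h (-0.27 ± 0.051, adjusted p = 0.000442).

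Among the remaining subunits Noxa1, the activator of NOX1, rose with atRA at 6 h (0.60 ± 0.086, adjusted p = 0.00146), with 9cisRA at 6 h (0.33 ± 0.086, adjusted p = 0.0306), and with the antagonist at 24 h (0.35 ± 0.086, adjusted p = 0.00288). The Noxa1 call with 9cisRA was lost under 12 of 50 alternatives, among them either mouse left out (0.20, adjusted p = 0.472 without mouse 1, and adjusted p = 0.0610 without mouse 2). That with the antagonist was lost without mouse 2 (adjusted p = 0.291) and without duplicate 2 of mouse 1 in that group (adjusted p = 0.132). Cyba, the membrane partner of the NOX enzymes that dual oxidases do not need, rose at 24 h with atRA (0.63 ± 0.051, adjusted p = 1.80e-06), 9cisRA (0.73 ± 0.051, adjusted p = 3.65e-07) and the antagonist (0.89 ± 0.051, adjusted p = 5.27e-09). Rac1, a small GTPase, rose with the antagonist at 24 h by 0.18 ± 0.045 (adjusted p = 0.00312). Its rise with 9cisRA (0.14 ± 0.045, adjusted p = 0.0201) was lost when libraries were scaled to read sums (0.011, adjusted p = 0.844).

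Enzymes and redox proteins that handle hydrogen peroxide were followed, most of which help to remove the product of the pair. The list also holds the superoxide dismutases Sod1 and Sod2, which make peroxide rather than remove it. Its counts and medians therefore cover both kinds. Of 17 listed genes 16 passed the filter. With atRA at 24 h 9 were called higher and 2 lower, with 9cisRA 10 and 2, and with the antagonist 3 and 8. The medians were 0.23, 0.21 and -0.15, against 0.00 over all genes. Prdx6, a peroxiredoxin, rose with atRA (0.51 ± 0.048, SE, adjusted p = 6.31e-06) and 9cisRA (0.52 ± 0.048, adjusted p = 3.37e-06) and fell with the antagonist (-1.92 ± 0.048, adjusted p = 2.55e-12). Txnrd1, thioredoxin reductase, did likewise by 0.26 ± 0.047, 0.30 ± 0.047 and -0.36 ± 0.047 (adjusted p = 0.000783, 0.000202 and 1.80e-05). Cat, catalase, fell with the antagonist by 0.63 ± 0.068 on the log2 scale (adjusted p = 3.10e-06). Of 8 extracellular peroxidases and peroxide channels 2 were tested. Aqp11, an intracellular aquaporin, rose with both acids (0.67 ± 0.13 and 0.95 ± 0.13, adjusted p = 0.00138 and 7.13e-05) and fell with the antagonist (-0.54 ± 0.13, adjusted p = 0.00254). Aqp3, an aquaporin that passes peroxide, rose with the antagonist by 2.60 ± 0.16 (adjusted p = 1.01e-08). Its mean at 24 h was 1.72 RPKM with DMSO, 2.03 with atRA, 4.03 with 9cisRA and 12.7 with the antagonist.

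Microbial signals that raise the pair act through pattern and cytokine receptors and NF-kB. Of 27 genes for such receptors and their adaptors 22 were tested. At 24 h 11 were called higher with atRA and 14 with 9cisRA, none lower, and 11 were higher and 3 lower with the antagonist. The medians were 0.16, 0.20 and 0.15, against 0.00 over all genes. At 6 h 1 was higher and 1 lower with atRA. Tlr3, a receptor for double-stranded RNA, was the member that rose there (0.57 ± 0.093, SE, adjusted p = 0.00340), and it also rose with 9cisRA at 6 h (0.59 ± 0.093, adjusted p = 0.00124). The Tlr3 call with atRA was lost without mouse 1 (adjusted p = 0.0541). Tlr2, a receptor for bacterial lipoproteins, rose at 24 h with both acids (0.60 ± 0.087 and 0.70 ± 0.087, adjusted p = 0.000184 and 3.61e-05).

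**Figure D5:**
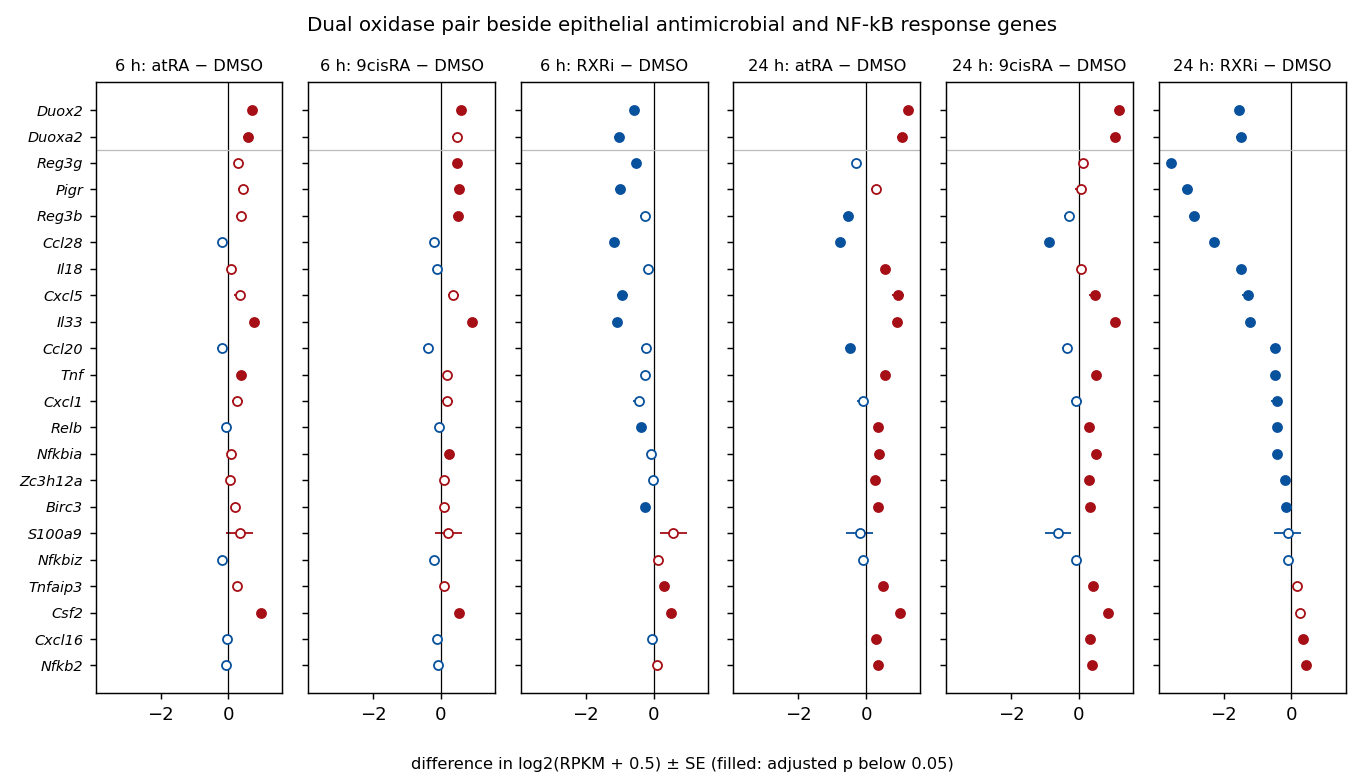
Differences from DMSO in log2(RPKM + 0.5), with SE, for Duox2 and Duoxa2 (top) and the 20 tested genes of the antimicrobial and NF-kB list, ordered by their value with RXRi at 24 h. Red points are above 0, blue below, and filled points have an adjusted p below 0.05. With the acids at 24 h most filled points lie to the right, and with RXRi 14 lie to the left.

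The list of other antimicrobial and NF-kB response genes, which are often raised with the pair in an infected gut, held 31 genes, of which 20 were tested. With atRA 3 were called higher and none lower at 6 h, and 12 higher and 3 lower at 24 h. With 9cisRA the counts were 6 and 0, then 11 and 1. With the antagonist 2 were higher and 7 lower at 6 h, and 2 higher and 14 lower at 24 h. The medians at 24 h were 0.31, 0.31 and -0.43, against 0.00 over all genes. Il33, an epithelial alarmin, rose with atRA at 24 h (0.91 ± 0.11, SE, adjusted p = 4.06e-05) and 9cisRA (1.08 ± 0.11, adjusted p = 6.13e-06). At 6 h it fell with the antagonist by 1.07 ± 0.11 (adjusted p = 7.86e-06). Csf2, the cytokine GM-CSF, rose with both acids at 24 h (1.01 ± 0.11 and 0.88 ± 0.11, adjusted p = 1.80e-05 and 3.48e-05) and did not pass with the antagonist.

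The members of this list with the smallest p for the antagonist at 24 h include Reg3g, Pigr and Ccl28. Reg3g, a lectin that kills Gram-positive bacteria, fell with the antagonist at 24 h from 34.5 to 2.52 RPKM (-3.55 ± 0.11, SE, adjusted p = 1.58e-11). Pigr, the transporter of immunoglobulin A, fell from 237 to 28.5 RPKM (-3.07 ± 0.15, adjusted p = 9.88e-10). Neither passed with either acid at 24 h. Ccl28, a mucosal chemokine, fell with all compounds at 24 h: by 0.77 ± 0.088 on the log2 scale with atRA (adjusted p = 2.93e-05), by 0.87 ± 0.088 with 9cisRA (adjusted p = 6.15e-06) and by 2.30 ± 0.088 with the antagonist (adjusted p = 1.11e-10). Il33 and Csf2 thus rose with both acids at 24 h as the pair did, and Ccl28 went the opposite way to the pair with both.

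Markers of epithelial cell types moved in the same comparisons. With the antagonist at 24 h 11 of 11 tested enterocyte markers were called lower (median -3.88), and their summed level was 3753 to 5878 RPKM against 11856 to 18860 with DMSO. With atRA 5 were higher and 1 lower (median -0.15, sum 20399 to 29012 RPKM), and with 9cisRA 7 and 1 (median 0.50, sum 25405 to 33876 RPKM). The largest part of these sums was Fabp1, whose mean at 24 h was 7776 RPKM with DMSO, 17181 with atRA and 19123 with 9cisRA. With atRA the means of Sis, Apoa1, Apoa4, Lct, Anpep, Rbp2 and Slc5a1 lay below DMSO. Those of Alpi, Fabp1, Fabp2, Vil1 and Mttp lay above it. Alpi, intestinal alkaline phosphatase of the brush border, fell with the antagonist by 3.88 ± 0.11 on the log2 scale (adjusted p = 5.26e-12). It rose with atRA (0.50 ± 0.11, adjusted p = 0.00260, lost under quantile normalization at 0.29 with adjusted p = 0.0722) and 9cisRA (0.67 ± 0.11, adjusted p = 0.000222). At 6 h no enterocyte marker was called with atRA, 2 were higher with 9cisRA and 9 were lower with the antagonist. Over all genes at 6 h, 2.79% were called higher and 1.87% lower with atRA. With 9cisRA 5.01% were higher, and with the antagonist 14.6% were lower.

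Markers of other cell types were counted in the same way. Of 8 tested goblet markers 4 were higher with the antagonist at 24 h, and of 8 Paneth markers 7 were lower. Of all genes 31.1% were called higher and 30.4% lower there. Goblet markers at 24 h summed to 592 to 664 RPKM with DMSO, 616 to 692 with atRA and 593 to 749 with 9cisRA. Paneth markers summed to 372 to 542, 231 to 501 and 272 to 367 RPKM in the same order. Of 7 stem and division markers 6 were lower with each compound at 24 h, and of 7 enteroendocrine markers 1 was lower with the antagonist. Avil, the single tested tuft marker, rose with the antagonist at 24 h by 2.51 ± 0.13 (SE, adjusted p = 2.48e-09). The other listed tuft markers, Pou2f3, Ptgs1 and Trpm5, failed the filter and did not follow Avil. In the fit without that filter Pou2f3 fell with the antagonist at 24 h (-0.36, adjusted p = 0.00635). Ptgs1 and Trpm5 did not pass there (adjusted p = 0.332 and 0.211). Of the 4 listed immune and stromal markers 2 were higher with atRA, 2 higher and 1 lower with 9cisRA, and 1 higher and 2 lower with the antagonist. The part of these marker changes in the changes of Duox2 and Duoxa2 was not tested.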

How the data were processed

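The authors deposited RPKM values for 12652 genes in 36 libraries, made from mRNA libraries per the labels' protocols. The tools STAR 2.5.2b and bcl2fastq 2.17, with build mm10, are listed in the submitters' processing notes, without roles. The counter and annotation are not given in the sources used here. Whole reads and gene lengths were recovered from the deposited RPKM for 100% of genes (tolerance 0.05 reads), giving 19.6 to 30.7 M reads per library. The divisors behind the RPKM were 20.5 to 30.3 M and not in a fixed proportion to these sums.

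Duplicates were averaged on log2(RPKM + 0.5) into 18 values. Genes with at least 1 RPKM in at least 4 libraries (11361) were fitted in 1 limma model (limma 3.58.1, R 4.3.3) with a mean per condition, the mouse as a block and an intensity trend, with 8 residual and 5.01 prior degrees of freedom. Each comparison was two-sided and adjusted by Benjamini-Hochberg over all tested genes, with calls below 0.05. With 2 mice per condition, p-values rest on spread pooled over conditions. The mouse is named in the labels, and differences between mice correlated between conditions (median 0.441, 0.0372 to 0.662).

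The 2 genes and the 13 gene lists were chosen with earlier results of these data known. The genes named were the pair, the tested NADPH oxidase genes, Duox1 and neighbours within 100 kb, the 6 most and 3 least similar genes, and up to 4 called members of each other list with the smallest p. Of the likeness values no p was computed. The alternatives changed the pseudocount, filter, scaling, blocks, conditions in the fit and test (voom on recovered reads), and left out each library and mouse. Fits without a mouse used the duplicates of the other as samples. Promoter windows and gene positions came from RefSeq, with GENCODE M21 for the overlap.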

Additional observations from a re-analysis of the deposited data

Results flagged for a closer look

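In 3 groups of 4 libraries 1 library of a member stood apart from the others by the ratio of its gap to the group's range. Chance gives this in about 1 group in 20 for 4 independent values. The groups screened were the 9 conditions for each of the 2 genes. Their libraries are duplicates of 2 mice, so that rate is only a guide. Duox2 with 9cisRA at 24 h was lowest in duplicate 2 of mouse 2, at 4.33 RPKM. Duoxa2 with atRA at 6 h was highest in duplicate 2 of mouse 1, at 2.97 RPKM. Duoxa2 with the RXR antagonist at 24 h was lowest in duplicate 1 of mouse 1, at 0.195 RPKM, which is 8 reads.

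The effect of each compound on Duox2 differed between 6 h and 24 h by a test of the difference itself. The change was 0.53 for atRA (adjusted p = 0.0360), 0.59 for 9cisRA (adjusted p = 0.0218) and -0.97 for the antagonist (adjusted p = 0.000366), each in the direction of a larger effect at 24 h. The calls for atRA and 9cisRA were lost under several alternatives given below. That for the antagonist was kept under all that gave a value.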

How the results depend on the processing

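Of 28 results of the pair (14 comparisons for each gene), 14 kept their direction and their side of the threshold under all 50 alternatives that gave a value. These include every difference from DMSO at 24 h, both falls with the RXR antagonist at 6 h and the rises in DMSO from 0 h to 24 h. With a filter on a mean of at least 5 RPKM neither gene was tested. At this depth Duoxa2 rests on as few as 8 reads in a library, and calls near the threshold at 6 h moved most. Causes were not tested.

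Without the replicate block (no mouse term), calls were lost for Duoxa2 with atRA at 6 h (0.58, adjusted p = 0.193), Duox2 with 9cisRA at 6 h (0.59, adjusted p = 0.0514), Duoxa2 in DMSO from 0 h to 6 h (0.46, adjusted p = 0.0863) and the changes of the atRA and 9cisRA effects on Duox2 (0.53 and 0.59, adjusted p = 0.137 and 0.103). With 36 libraries as samples and the mouse and duplicate number as a replicate block, calls were gained for Duoxa2 with 9cisRA at 6 h (0.49, adjusted p = 0.0131), Duox2 in DMSO from 0 h to 6 h (0.25, adjusted p = 0.0419) and the change of the 9cisRA effect on Duoxa2 (0.59, adjusted p = 0.0211). The same values with the mouse alone as a block had adjusted p = 0.0113, 0.0403 and 0.0188, and the change of the antagonist effect on Duoxa2 then passed (-0.47, adjusted p = 0.0478). Differences between duplicate numbers had a median correlation of -0.0109 (-0.412 to 0.541) between conditions, so these numbers were not used to pair libraries.

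Without mouse 1 the rises with atRA at 6 h were lost for Duox2 (0.48) and Duoxa2 (0.26), the change of the 9cisRA effect on Duox2 was lost (0.49), and the isomer differences at 6 h turned positive (0.067 for Duox2 and 0.055 for Duoxa2). Without mouse 2 Duoxa2 gained a call with 9cisRA at 6 h (0.66) and lost that from 0 h to 6 h (0.42), and the change of the atRA effect on Duox2 was lost (0.40). A pseudocount of 0.1 lost Duoxa2 with atRA at 6 h (0.70) and the changes for Duox2 with atRA and 9cisRA (0.49 and 0.57), and a pseudocount of 1 gained that for Duoxa2 with 9cisRA (0.54), as did quantile normalization (0.67). Read-sum scaling, which moves the median of all genes by up to 0.12, lost the same changes for Duox2 (0.43 and 0.47) and turned the isomer difference of Duoxa2 at 24 h to -0.014. Voom lost Duoxa2 with atRA at 6 h (0.69) and from 0 h to 6 h (0.63) and the changes for Duox2 (0.50 and 0.55). With only the compared conditions in the fit Duoxa2 gained calls with 9cisRA at 6 h (0.49) and in DMSO from 6 h to 24 h (0.26), and the change of the 9cisRA effect on Duox2 was lost (0.59).

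Leaving out 1 library at a time, Duoxa2 with atRA at 6 h ranged from 0.52 to 0.64 and with 9cisRA from 0.43 to 0.54, and Duox2 from 0 h to 6 h from 0.17 to 0.32. The first call was lost without any 1 of these libraries: mouse 1 at 0 h (duplicate 1), 6 h RXRi (2), 24 h 9cisRA (2) and 24 h RXRi (1 or 2), and mouse 2, duplicate 2, in 6 h DMSO, 6 h atRA, 24 h atRA and 24 h 9cisRA. The second passed without 6 h DMSO duplicate 1, 6 h 9cisRA duplicate 2 or 24 h 9cisRA duplicate 1 of mouse 1, or duplicate 1 of 6 h DMSO or 24 h atRA of mouse 2. The third passed without duplicate 2 at 0 h of either mouse or of 6 h DMSO of mouse 1. The isomer difference of Duoxa2 at 24 h ranged from -0.099 to 0.14. The changes of effect ranged from 0.45 to 0.61 (Duox2, atRA), 0.51 to 0.67 (Duox2, 9cisRA) and 0.48 to 0.71 (Duoxa2, 9cisRA). Without 6 h DMSO duplicate 1 of mouse 1 both Duox2 calls were lost (adjusted p = 0.0989 and 0.0648). That for atRA was also lost without duplicate 2 of mouse 1 at 0 h, 6 h atRA or 6 h 9cisRA or duplicate 1 of 24 h DMSO of mouse 2, and the last made that for Duoxa2 pass. The uncalled difference of Duox2 between DMSO at 24 h and atRA at 6 h turned to 0.11 without mouse 1 and ranged from -0.098 to 0.027 without 1 library (0.0054 in another). That against 9cisRA at 6 h ranged from -0.0051 to 0.16.

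Counts of called genes that moved by over 1.5 times were those with atRA at 6 h (529, 177 to 1341), 9cisRA at 6 h (913, 416 to 1602), atRA at 24 h (4314, 2766 to 5184), the isomers at 6 h (195, 40 to 743) and 24 h (53, 10 to 352), and the changes of effect for atRA (1947, 635 to 3197) and 9cisRA (2040, 1005 to 3267).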
